A study of Mus musculus with 8 samples.

Results

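The replication-dependent histone genes supply the core histones H2A, H2B, H3 and H4 and the linker histone H1 that package newly made DNA. They were taken here as the genes whose GENCODE M21 symbol begins with Hist1h, Hist2h, Hist3h or Hist4h. Of 53465 genes in the count tables, 70 carried such a symbol, and the 69 with 10 or more reads summed over the 8 libraries were kept. Hist2h3c1, an H3 gene, had 0 reads and stayed outside, and Hist2h2aa1, an H2A gene with 12 reads, lay just inside. The kept genes comprised 6 H1, 20 H2A, 19 H2B, 11 H3 and 13 H4 genes. The Hist1 group held 56 genes on chromosome 13, Hist2 held 9 on chromosome 3, Hist3 held 3 on chromosome 11 and Hist4 held 1 on chromosome 6.

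Messenger RNAs of these genes are unusual in that they lack introns and mostly end in a conserved stem-loop in place of a poly(A) tail. The stem-loop is bound by SLBP, and NPAT, under the control of cyclin E and CDK2, drives transcription of the genes as cells enter S phase. A few members are also made as polyadenylated transcripts outside S phase. In the thymus, histone mRNA is known to be high in dividing precursors, among them the large cycling cells at the start of the double-positive stage, while most double-positive cells are small and resting. Libraries from total RNA, as used here, can capture mRNAs without a poly(A) tail.

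RNA was measured in live CD4+ CD8+ thymocytes sorted by flow cytometry from mice of 2 inbred strains, C57BL/6J and NOD/ShiLtJ (NOD), a strain that develops autoimmune diabetes. No treatment or engineered allele was given for either strain, and age and sex are not stated in the labels. Each strain had 4 libraries, and the pair of libraries with equal B numbers in their titles was summed to 1 sample, which left 2 samples per strain. The titles also carry a T number, read here as a repeated library; the labels do not spell out either number, and if T marked separate samples there would be 4 per strain. Nothing in the labels ties a B number to an animal, so the tests rest on the variation among these samples alone, and this may be technical.

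The NOD libraries were deeper, at 23.533 to 30.371 M reads assigned to genes, while C57BL/6J libraries had 8.527 to 15.702 M, so depth and strain cannot be told apart. The 2 libraries of each sample differed by more than sampling noise (chi-square per degree of freedom 2.96 to 61.2). This does not tell what the T number stands for. None of 9 markers of double-positive cells was called different in edgeR, and their summed level was 15730 to 19890 counts per M reads (CPM) in C57BL/6J and 12160 to 14340 CPM in NOD libraries. Markers of other cells (25 genes, Cd14 at 0 in every library) summed to 24.0 to 39.9 CPM in C57BL/6J and 34.9 to 58.5 CPM in NOD. Of the 17 tested, Csf1r and Col1a2 were higher in NOD.

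Most members carried the stem-loop of the family in their annotated RNA, in a few forms that do not tell single members apart. The histone stem-loop, searched on the transcript strand of GENCODE M21 transcripts by the consensus of its stem and loop, was found in 44 of 70 annotated members and in 44 of the 52 with 40 or more bases annotated after the coding part, against 28 of 21834 other protein-coding genes (0.128%). The common forms and that of Hist1h4i are shown because they separate H4 from the other types; the 4 loop bases are in capitals.
Form of 26 members of H1, H2A, H2B and H3, Hist3h2ba and Hist2h2aa2 among them: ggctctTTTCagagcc
Form of 6 members of H1, H2B and H3, Hist1h3f among them: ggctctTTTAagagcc
Form of 7 H4 members, Hist1h4m, Hist1h4n and Hist4h4 among them: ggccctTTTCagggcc
Form of 2 H4 members, Hist1h4i and Hist2h4: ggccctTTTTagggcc
The stem of the H4 forms held a base pair that the common form of the other types did not. The pseudogenes Hist1h2al and Hist3h2bb-ps held no match in their annotated transcripts, which may stop short of this end.

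Promoter sequences from RefSeq (GRCm38.p6) were found for 62 of the 70 annotated members. Letters of 5 short motifs were searched on both strands in windows of 300 bases, from 250 before to 50 after the start. TATAA was held by 79.0% of member promoters against 24.9% of all 32851 RefSeq promoters, and CCAAT by 85.5% against 37.4%. CCAAT was in every matched promoter of H1, H2A, H2B and H3 genes (6, 18, 16 and 10 promoters) and in 3 of the 12 of H4 genes. GGTCCG, the core of the H4 element known as site II, was in 11 of 12 H4 promoters against 8.25% of all promoters. The octamer ATTTGCAT was in 7 H2A and 6 H2B promoters and no other member's (1.74% of all promoters), and AAACACA was in 5 of 6 H1 promoters (7.18% of all). Windows of neighbouring genes on opposite strands can overlap, so the same site can count for both genes, as the octamer of Hist1h2ah and Hist1h2bk does. A match is a description of letters, not of a bound site.

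The promoters of the called H4 genes, of the near copy Hist1h4n and of Hist3h2ba are shown from 160 bases before the start to 20 bases after it, because they include 4 of the 8 called members and the near copy of one of them. Capitals mark the TATA motif, the CCAAT motif and the site II core as spelled above, on either strand.
Hist1h4m, chr13:21811586-21811765, plus strand: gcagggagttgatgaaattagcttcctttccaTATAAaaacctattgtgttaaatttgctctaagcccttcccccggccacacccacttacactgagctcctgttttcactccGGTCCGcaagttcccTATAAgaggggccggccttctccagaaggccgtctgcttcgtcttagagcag
Hist1h4n, chr13:21832178-21832357, minus strand: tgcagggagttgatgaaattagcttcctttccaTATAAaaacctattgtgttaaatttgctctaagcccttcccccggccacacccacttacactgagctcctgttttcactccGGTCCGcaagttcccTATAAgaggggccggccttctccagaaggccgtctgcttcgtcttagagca
Hist1h4i, chr13:22041343-22041522, minus strand: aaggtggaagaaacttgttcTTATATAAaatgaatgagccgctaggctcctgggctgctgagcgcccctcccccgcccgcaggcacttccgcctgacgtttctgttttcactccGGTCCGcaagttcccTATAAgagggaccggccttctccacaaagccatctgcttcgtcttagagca
Hist4h4, chr6:136804412-136804591, minus strand: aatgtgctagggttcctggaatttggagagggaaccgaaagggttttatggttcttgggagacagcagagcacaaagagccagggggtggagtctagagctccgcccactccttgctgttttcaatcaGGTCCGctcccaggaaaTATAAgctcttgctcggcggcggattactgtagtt
Hist3h2ba, chr11:58948751-58948930, plus strand: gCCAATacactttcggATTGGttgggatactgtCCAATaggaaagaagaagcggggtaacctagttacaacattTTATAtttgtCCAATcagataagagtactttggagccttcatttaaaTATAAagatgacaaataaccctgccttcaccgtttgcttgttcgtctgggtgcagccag
All 4 H4 promoters held GGTCCG upstream of a TATAA. Over the whole windows, shifted by 1 base, Hist1h4m and Hist1h4n had the same base at 298 of 299 positions, so the reference promoters of these genes are nearly alike. These are sequences of the reference genome; sequence of the NOD strain was not used here.

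Summed histone mRNA did not separate the strains. The 69 members together made up 19290 and 14890 CPM in C57BL/6J samples 1 and 2 and 12250 and 19660 CPM in NOD samples 1 and 2 (17090 ± 3115 against 15950 ± 5241 CPM, mean ± SD, n = 2 samples each, here and below), a ratio of NOD to C57BL/6J of 0.933. CPM were scaled with TMM factors, which are set so that most genes do not differ between samples. The NOD samples lay on both sides of the C57BL/6J samples, and the 8 libraries overlapped. In TMM-scaled reads these means correspond to 1.71% in C57BL/6J and 1.60% in NOD, which are not shares of the unscaled reads.

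By type, H1 genes had the largest sum in both strains, 8001 ± 1539 CPM in C57BL/6J against 6957 ± 1392 CPM in NOD (46.8% and 43.6% of all histone CPM). H2A genes summed to 3070 ± 450 and 3995 ± 1846 CPM, H2B genes to 2357 ± 397 and 1872 ± 886 CPM, H3 genes to 1125 ± 169 and 899 ± 462 CPM, and H4 genes to 2536 ± 560 and 2229 ± 654 CPM. Only the H2A sum was higher in NOD, with a ratio of 1.30, and without the single gene Hist1h2al it was 3066 ± 449 and 3250 ± 1578 CPM, a ratio of 1.06. Leaving out 1 sample turned the sign of the log2 ratio of NOD to C57BL/6J for every type and for all members; that of H2A was 0.38, and -0.19 without NOD sample 2. No sum was tested, and for each type the difference of the strain means was smaller than the spread between the NOD samples.

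**Figure D1:**
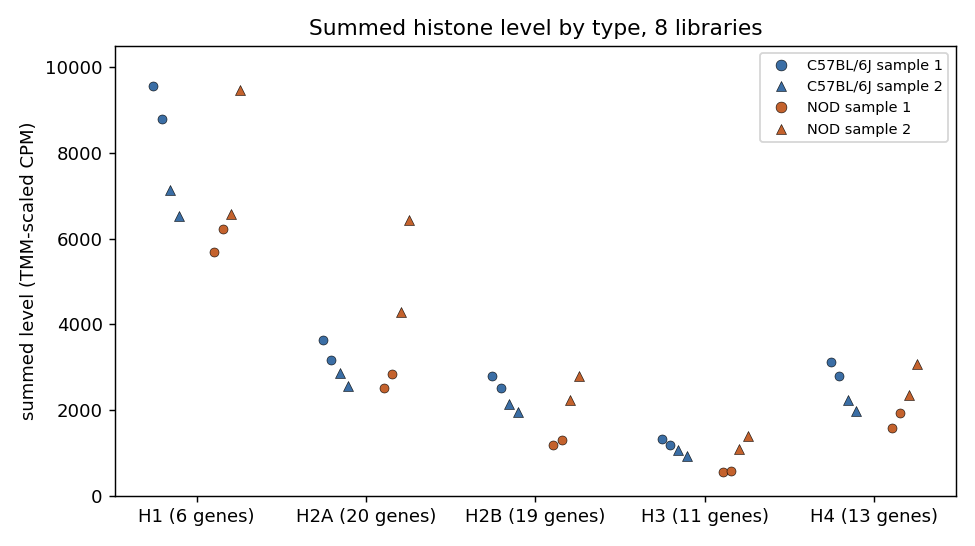
Summed level of each histone type (TMM-scaled CPM, vertical axis) in each of the 8 libraries, with colour for strain and marker shape for sample. In every type the circles of NOD sample 1 lie below the triangles of NOD sample 2, and the libraries of the strains overlap.

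The samples of 1 strain differed from each other in nearly all members at once. Among the 53 members with a mean of at least 10 CPM in both strains, C57BL/6J sample 2 was below sample 1 in 53, with a median log2 ratio of -0.34, and NOD sample 2 was above sample 1 in 52, with a median of 0.94. Over all tested genes the same medians were -0.004 and -0.02. Genes of DNA replication (24 genes) were likewise lower in NOD sample 1, at 1089 CPM in sample 1 and 2717 CPM in sample 2, against 2592 and 2283 CPM in C57BL/6J. Mitosis genes (10 genes) stood at 690 and 3862 CPM in the NOD samples and at 3138 and 3715 CPM in C57BL/6J. In bulk RNA, fewer cycling cells and less histone mRNA per cycling cell cannot be told apart, and the part of either in the spread between samples was not tested.

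Single members differed between the strains, while the sum of all members and the sums by type overlapped. By group, the Hist1 and Hist2 sums overlapped too. Libraries of the strains lay apart in the Hist3 sum (3 genes), at 88.2 ± 13.8 CPM in C57BL/6J against 18.5 ± 0.66 CPM in NOD. They also lay apart in Hist4, which is 1 gene, at 104 ± 29.8 against 272 ± 15.6 CPM. Of 68 members tested with the quasi-likelihood test of edgeR, 8 passed a Benjamini-Hochberg adjusted p of 0.05 over all 17291 tested genes, 4 higher and 4 lower in NOD. That is 11.8% of members, beside 3.68% of all tested genes (1.91% higher and 1.78% lower). Without NOD sample 2, the sample with the higher histone level, 35 members were called (beside 8.08% of all genes tested in that fit), 30 of them lower in NOD (4.2% of all). Without NOD sample 1, 14 were called (5.06% of all), 10 of them higher (2.61% of all). In each of these fits the single NOD sample is assumed to vary like the C57BL/6J samples. The 8 members were among those called in both cases. In 18 members, 8 of them called, the 4 libraries of 1 strain all lay above the 4 of the other, beside 17.1% of all tested genes; NOD was above in 8 (8.14% of all tested genes) and below in 10 (9.0%).

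The log2 fold change (NOD over C57BL/6J) was above 0 in 20 and below 0 in 48 of the 68 members, with a median of -0.20 beside 0.02 for all tested genes. The called members were 2 of 19 H2A genes (both higher), 2 of 19 H2B genes (both lower), 1 of 11 H3 genes (lower) and 3 of 13 H4 genes (2 higher, 1 lower). None of 6 H1 genes was called; 1 of them, Hist1h1t, had an unadjusted p under 0.05. By location, 4 of 56 in Hist1, 1 of 8 tested in Hist2, 2 of 3 in Hist3 and the single Hist4 gene were called. The 60 uncalled members had adjusted p-values from 0.0508 to 0.997 and log2 fold changes from -1.73 to 2.13, with a median standard error (SE) of 0.34.

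**Figure D2:**
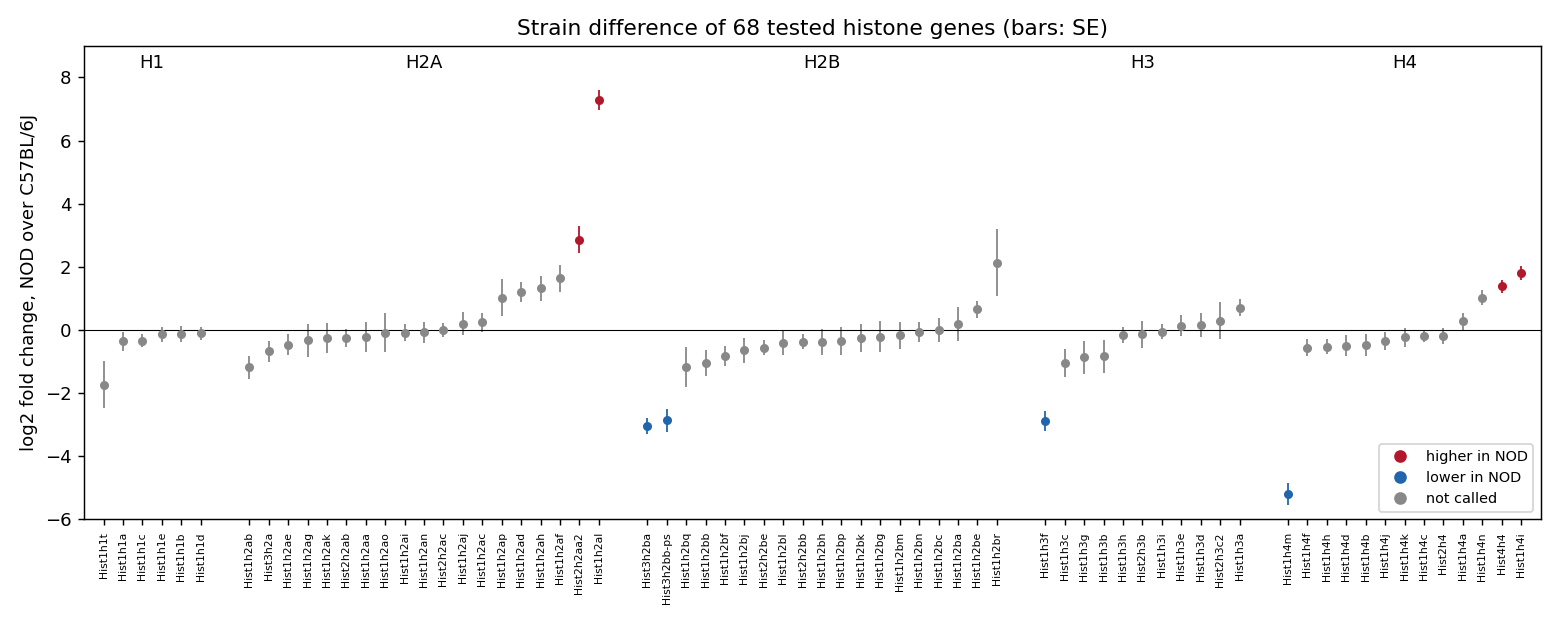
Log2 fold change of NOD over C57BL/6J with its SE (vertical axis) for the 68 tested members, grouped by histone type and ordered by size. The 4 members called lower in NOD lie below all others, and Hist1h2al and Hist2h2aa2, called higher, lie above all others. Hist1h4i and Hist4h4, also called higher, lie within the range of the uncalled members. The uncalled H1 genes other than Hist1h1t lie close together just below 0.

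Linker histone H1 binds the DNA between nucleosomes and compacts chromatin. Hist1h1d, named after its values were seen, was the H1 gene with the most reads, at 2576 and 1956 CPM in C57BL/6J and 2018 and 2196 CPM in NOD samples (log2 fold change -0.10 ± 0.20 SE, adjusted p = 0.905). Hist1h1c was at 2511 and 1904 CPM in C57BL/6J and 1553 and 1931 CPM in NOD (-0.34 ± 0.21, adjusted p = 0.604). Hist1h1b had 1054 and 842.8 CPM in C57BL/6J and 651 and 1090 CPM in NOD (-0.12 ± 0.25, adjusted p = 0.913). Per length, Hist1h1c and Hist1h1b were the highest H1 genes, at a mean of 1266 and 1224 reads per kb of exon per M reads (RPKM) over the 4 samples. The strains overlapped in all 3 genes. Ranks per length also depend on the annotated exons, 743 bases in Hist1h1b and 7425 bases in Hist1h1d. Hist1h1t, the H1 gene of the male germline and also named after its values were seen, was near the floor, at 1.68 ± 0.31 and 0.495 ± 0.522 CPM (-1.73 ± 0.75, adjusted p = 0.379). H1 genes are the least alike of the histones, and a median of 97.8% of their windows of 37 bases, the length of the shorter read of a pair, occurred in no other member.

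H2A pairs with H2B in the nucleosome. The largest strain difference of the whole family was in Hist1h2al (ENSMUSG00000091383, chr13:51202727-51203065, minus strand), annotated in GENCODE M21 as a processed pseudogene and lying apart from the main chromosome 13 cluster. It stood at 5.08 and 4.50 CPM in C57BL/6J samples 1 and 2 and at 556 and 936 CPM in NOD samples 1 and 2. Every NOD library was far above every C57BL/6J library, with a log2 fold change of 7.28 ± 0.32 (adjusted p = 9.35e-06). It supplied 0.156% of H2A reads in C57BL/6J and 19.2% in NOD. By mean CPM it ranked 15 among H2A members in C57BL/6J and 1 in NOD, although Hist1h2af was higher in NOD sample 2, at 990 CPM.

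Hist1h2al is 1 of several H2A copies that short reads separate poorly. Over the 339 bases of its transcript it differed from Hist2h2aa2 at 2 positions (99.4% identity), both within the 120 bases shown, where they are in capitals.
Hist1h2al, chr13:51202850-51202969, minus strand: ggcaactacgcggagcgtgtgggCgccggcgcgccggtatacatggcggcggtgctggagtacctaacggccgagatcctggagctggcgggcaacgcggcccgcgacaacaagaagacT
Hist2h2aa2, chr3:96240020-96240139, minus strand: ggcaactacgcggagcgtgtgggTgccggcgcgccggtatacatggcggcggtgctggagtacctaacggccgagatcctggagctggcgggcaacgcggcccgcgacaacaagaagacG
These are the reference sequences of GRCm38. Of the windows of 37 bases in Hist1h2al, 22.4% occurred in no other member.

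Hist2h2aa2 (chr3:96239749-96240276), which shares every window with Hist2h2aa1, was also higher in NOD but at a low level. It went from 0.883 and 0.769 CPM in the C57BL/6J samples to 4.86 and 7.21 CPM in the NOD samples (2.87 ± 0.43, adjusted p = 0.00647; 0.0529 without C57BL/6J sample 1). Its copy Hist2h2aa1 had 4 reads in C57BL/6J and 8 in NOD and was too low to be tested. Antisense models cover both genes in full, 528 bases in Hist2h2aa2 and 586 bases in Hist2h2aa1. Reads were assigned to both sides, 680 to Hist2h2aa2 beside 190 to its antisense model Gm20632. Hist2h2aa1 had 12 reads beside 266 of Gm20633. Whether the counting used strand is not stated in the labels. Summed over the 3 copies, the counted level was 5.70 ± 0.50 CPM in C57BL/6J against 752 ± 270 CPM in NOD. Reads of shared windows may be missing from this sum, because the handling of reads with several alignments is not given. Hist1h2al also shared windows with 19 other members in all, most of which the sum leaves out. The sum was higher in NOD as well, but it cannot show the level of reads that were not counted. Both Hist2h2aa1 and Hist2h2aa2 were near the floor in C57BL/6J, so a fall in NOD that offsets the rise could not be seen. Whether reads were exchanged among the 3 copies was not tested.

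The gene next to Hist1h2al, Spin1, was not called, at 121 ± 4.49 and 110 ± 7.02 CPM (adjusted p = 0.837). A miRNA model on the opposite strand of Hist1h2al, Gm44341, had 0 reads in C57BL/6J and 440 in NOD. Models of this kind lie opposite 19 H2A members and held 1720 reads beside 568803 reads of the members (0.302%). The share was highest opposite Hist3h2a, at 10.1%. Longer antisense models, such as those opposite Hist2h2aa1 and Hist2h2aa2, are not in this count.

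The H2A genes with the highest level per length over the 4 samples did not pass the test. Hist1h2ak, at 1446 RPKM, ranked 1 per length in C57BL/6J and 3 in NOD, and had 665 and 575 CPM in C57BL/6J and 284 and 750 CPM in NOD (adjusted p = 0.903). Hist1h2af, at 1166 RPKM, ranked 6 in C57BL/6J and 2 in NOD, behind Hist1h2al. It was at 241 and 213 CPM in C57BL/6J and at 417 and 990 CPM in NOD, with every NOD library above every C57BL/6J library (1.63 ± 0.43, adjusted p = 0.165). It was called by DESeq2 (adjusted p = 7.81e-05), by limma voom, without the filter on low counts and without either NOD sample, and was not called in the other fits. Over all alternatives its adjusted p ran from 1.95e-17 to 0.827; the smallest came without NOD sample 1, from a fit in which only the C57BL/6J samples give a spread. Hist1h2ab, chosen after its values were seen, went the other way, at 502 and 413 CPM in C57BL/6J and 128 and 274 CPM in NOD (-1.19 ± 0.37, adjusted p = 0.225). It was called by DESeq2, by limma voom, without the filter, with the B numbers crossed as a block and without NOD sample 2, and was not called in the other fits. Its share of H2A reads was 14.9% in C57BL/6J and 4.96% in NOD. H2A members shared sequence most, with a median of 21.4% of windows found in no other member, and all 20 overlap exons of another gene model.

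Among H2B genes the called members were both in the Hist3 group on chromosome 11, and both were lower in NOD. Hist3h2ba (chr11:58948920-58949533) fell from 75.6 and 49.3 CPM in C57BL/6J samples 1 and 2 to 7.20 and 7.90 CPM in the NOD samples (-3.05 ± 0.25, adjusted p = 0.000217). Hist3h2bb-ps (chr11:58954048-58954512), a processed pseudogene nearby, fell from 11.8 and 9.07 CPM to 1.24 and 1.62 CPM (-2.87 ± 0.36, adjusted p = 0.00263). In both genes all 4 NOD libraries lay below all 4 C57BL/6J libraries. They share 168 windows, and their summed level was 72.9 ± 20.5 CPM in C57BL/6J against 8.98 ± 0.76 CPM in NOD. Hist3h2a, the H2A gene of the same group and named after its values were seen, was not called, at 15.3 ± 6.72 and 9.56 ± 0.11 CPM (-0.68 ± 0.33, adjusted p = 0.445).

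The H2B genes with the highest level per length over the 4 samples did not pass the test. Hist2h2bb, at 1324 RPKM and ranked 1 in both strains, was at 651 and 489 CPM in C57BL/6J and 350 and 528 CPM in NOD (-0.38 ± 0.23, adjusted p = 0.613). It supplied 24.1% and 24.6% of H2B reads, and it overlaps the long noncoding RNA Gm42743 on the same strand. Hist1h2bn, at 416 RPKM, ranked 4 per length in C57BL/6J and 2 in NOD, and 6 by CPM in both strains. It was at 177 and 148 CPM in C57BL/6J and 104 and 205 CPM in NOD (adjusted p = 0.960). Hist1h2br had the largest log2 fold change among uncalled members (2.13 ± 1.06, adjusted p = 0.476) from only 7 reads in C57BL/6J and 72 in NOD. Its copy Hist1h2bq, named after its values were seen, has the same coding part over 402 bases and shares 1973 windows with it. Hist1h2bq went the other way, with 31 reads in each strain (-1.16 ± 0.63, adjusted p = 0.522). Whether reads were exchanged between these copies was not tested either.

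H3 and H4 form the tetramer at the centre of the nucleosome. The single called H3 gene was Hist1h3f (chr13:23544052-23545312), at 91.8 and 73.8 CPM in C57BL/6J samples 1 and 2 and 7.75 and 14.6 CPM in NOD samples 1 and 2 (-2.89 ± 0.31, adjusted p = 0.00244). All NOD libraries were below all C57BL/6J libraries, and its share of H3 reads was 7.35% in C57BL/6J and 1.27% in NOD. Its nearest copy, Hist1h3e, named after its values were seen, differed from it at 5 of 408 coding bases and shared 564 windows. Hist1h3e was at 183 and 133 CPM in C57BL/6J and 121 and 228 CPM in NOD (0.14 ± 0.32, adjusted p = 0.924). The 2 genes together stood at 241 ± 48.5 CPM in C57BL/6J against 186 ± 81.0 CPM in NOD, with overlapping libraries.

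The most abundant H3 genes per length over the 4 samples were Hist1h3b (357 RPKM) and Hist2h3b (220 RPKM). Hist1h3b was at 314 and 254 CPM in C57BL/6J and 84.4 and 234 CPM in NOD (-0.84 ± 0.51, adjusted p = 0.650), and Hist2h3b at 118 and 106 CPM against 59.7 and 145 CPM (-0.13 ± 0.43, adjusted p = 0.950). In both, NOD sample 1 was the low sample.

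Hist1h4m (chr13:21811746-21812147) had the largest fall of the family. It was at 29.8 and 21.5 CPM in the C57BL/6J samples and at 0.565 and 0.828 CPM in the NOD samples (-5.19 ± 0.35, adjusted p = 6.76e-05), from 1205 reads to 74 in a strain with deeper libraries. The coding part of Hist1h4n (chr13:21831767-21832196) is identical to that of Hist1h4m over 309 bases, and they share 330 windows, so 9.8% of the windows of Hist1h4m are in no other member. Hist1h4n, named after its values were seen, stood at 18.2 and 14.2 CPM in C57BL/6J and 28.2 and 37.8 CPM in NOD, with all NOD libraries above (1.02 ± 0.24, adjusted p = 0.0508). The sum of the pair was 41.8 ± 8.67 CPM in C57BL/6J against 33.7 ± 6.93 CPM in NOD, with overlapping libraries. Whether reads were exchanged between these copies was not tested.

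The other called H4 genes were higher in NOD. Hist1h4i (chr13:22040636-22041362) was at 15.9 and 13.7 CPM in C57BL/6J samples and 43.2 and 59.8 CPM in NOD samples (1.80 ± 0.23, adjusted p = 0.00246). Hist4h4 (chr6:136801553-136804415), alone on chromosome 6, was at 125 and 83.3 CPM in C57BL/6J and 283 and 261 CPM in NOD (1.38 ± 0.21, adjusted p = 0.00742). Every NOD library was above every C57BL/6J library in both genes. All 2674 windows of Hist4h4 occurred in no other member, and 87.5% of them in no other annotated gene. Its share of H4 reads was 4.09% in C57BL/6J and 12.8% in NOD, and it was the 1 of the 53 members above that was higher in NOD sample 1 than in sample 2. Within 100 kb of Hist4h4, Art4, a gene of the ADP-ribosyltransferase family, fell from 53.0 ± 3.85 to 9.94 ± 2.59 CPM (-2.42 ± 0.24, adjusted p = 0.000591) and BC049715 fell from 3.40 to 0.740 CPM (adjusted p = 0.0243). Wbp11 and H2afj, the neighbours that also lie in this stretch, were not called.

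**Figure D3:**
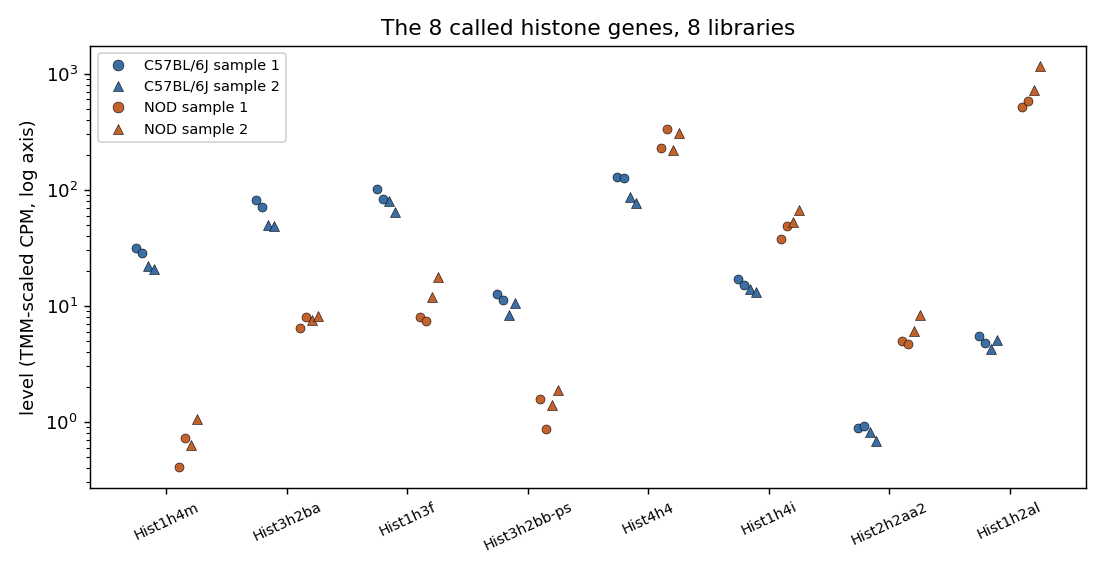
Level (TMM-scaled CPM, log axis) of the 8 called members in each of the 8 libraries, ordered from the largest fall to the largest rise in NOD. In each gene the strains are apart, and Hist1h2al spans the widest gap, from 4.22 to 5.44 CPM in C57BL/6J libraries to 521 to 1166 CPM in NOD libraries.

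The H4 genes with the highest level per length over the 4 samples were Hist1h4h (596 RPKM) and Hist1h4d (533 RPKM). Hist1h4d alone made 28.0% of H4 reads in C57BL/6J and 22.0% in NOD, at 804 and 613 CPM and at 334 and 675 CPM (-0.49 ± 0.34, adjusted p = 0.692). Hist1h4h was at 381 and 279 CPM in C57BL/6J and 185 and 275 CPM in NOD (-0.52 ± 0.23, adjusted p = 0.391). The strains overlapped in both.

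**Figure D4:**
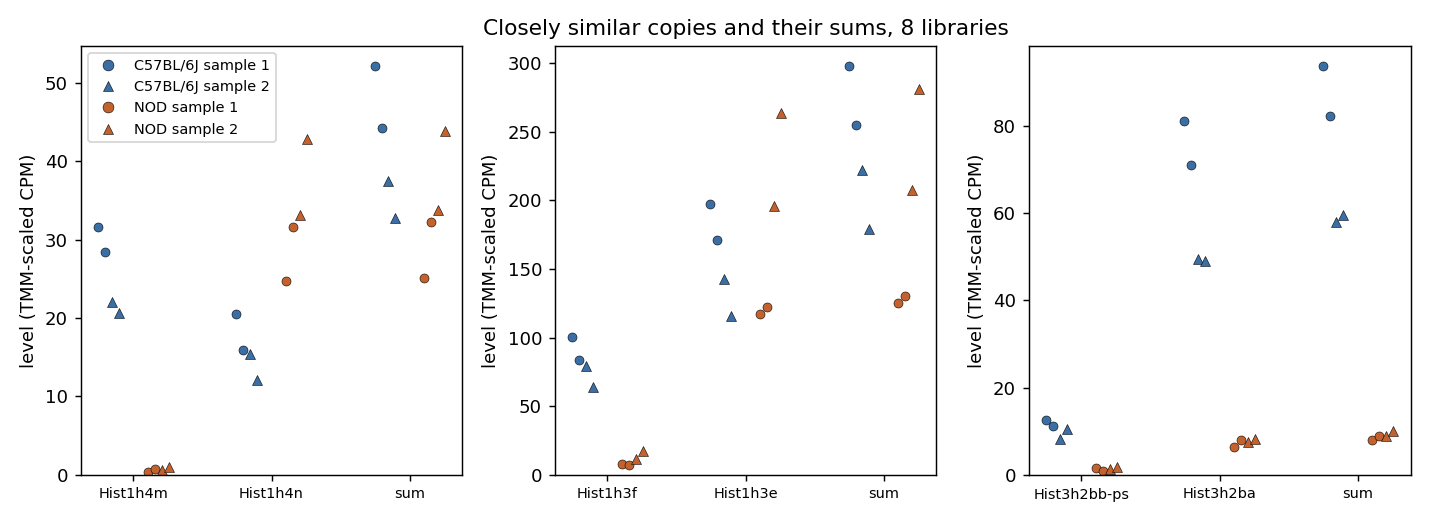
Level (TMM-scaled CPM) of 3 pairs of closely similar copies and of their sums in each of the 8 libraries. The sums of Hist1h4m with Hist1h4n and of Hist1h3f with Hist1h3e overlap between the strains, while the sum of Hist3h2bb-ps with Hist3h2ba stays apart, at 72.9 and 8.98 CPM.

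Strain differences were found both in members that share sequence and in members that do not. Of the 8 called members, 3 had under 25% of windows to themselves, 4 had between 25% and 75%, and 1 had over 75%, with a median of 53.8%. Of the 60 uncalled ones, 18, 27 and 15 fell in these ranges, with a median of 47.3%. Coding parts of equal length had a median identity of 93.85% among 13 H4 genes (309 bases), 94.71% among 14 H2B genes (378 bases), 96.67% among 15 H2A genes (390 bases) and 97.55% among 11 H3 genes (408 bases).

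**Figure D5:**
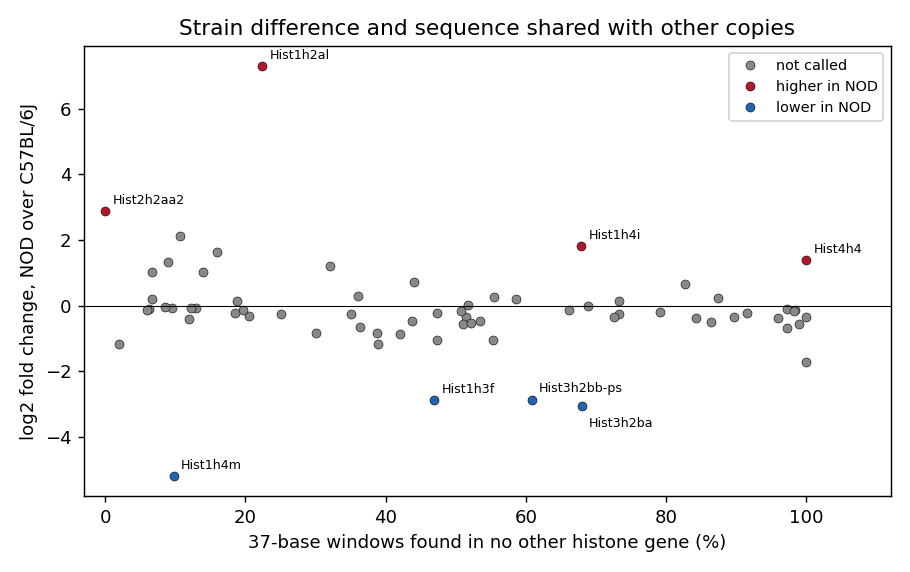
Log2 fold change of NOD over C57BL/6J (vertical axis) against the share of 37-base windows found in no other member (horizontal axis, %), for the 68 tested members. Called members are named and coloured, and they spread from 0% (Hist2h2aa2) to 100% (Hist4h4).

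Other genes between the members of the main Hist1 stretch (chr13:21715763-23934851) gave 3 calls among 18 tested, beside 3.68% of all tested genes. None of the 4 tested protein-coding genes there was called (Zfp184, Zfp322a, Abt1 and Hfe). The called ones were Gm46404, a long noncoding RNA higher in NOD (0.383 to 4.06 CPM, 3.40 ± 0.49, adjusted p = 0.00534), Gm48356, a model of 2 reads in C57BL/6J and 99 in NOD, and Gm44484, a miRNA model opposite Hist1h2ab that was lower in NOD (2.39 to 0.316 CPM, adjusted p = 0.0167). None of the 7 other genes tested within Hist2 was called, nor the 1 tested within Hist3.

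Among the listed genes that make, process and handle histone mRNA and protein, none passed the test between the strains. None of 18 genes of histone mRNA transcription and processing was called (median log2 fold change -0.10, beside 0.02 for all tested genes). Slbp, the stem-loop binding protein, was at 105 and 99.5 CPM in C57BL/6J and 56.5 and 131 CPM in NOD (adjusted p = 0.946), and like most members it was lower in NOD sample 1 than in sample 2. Tut7, which adds uridines to histone mRNA before its decay, was at 315 and 330 CPM, and Srrt, a partner of the cap-binding complex, at 233 and 217 CPM. None of 7 cell cycle drivers was called, with E2f2 at 245 and 263 CPM and Cdk2 at 73.6 and 68.4 CPM. None of 21 histone chaperones was called (median -0.32), with Atrx at 738 and 793 CPM and Anp32e, which removes the variant H2A.Z, at 508 and 339 CPM.

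Replication-independent histone genes, whose polyadenylated mRNAs are made through the whole cell cycle, summed to 1553 ± 168 CPM in C57BL/6J against 1512 ± 263 CPM in NOD, with none of 11 tested called (median -0.002). H3f3b, which encodes H3.3, was at 393 and 430 CPM and H2afy, which encodes macroH2A1, at 345.2 and 345.9 CPM. None of 24 DNA replication genes (median -0.30; Mcm6 at 251 and 193 CPM, Rrm1 at 223 and 154 CPM) and none of 10 mitosis genes (median -0.48; Mki67 at 1857 and 1197 CPM, Top2a at 1063 and 684 CPM) was called, and in these 4 genes NOD sample 1 was the lowest sample. None of 4 mature single-positive markers was called (Klf2 at 7.25 and 10.97 CPM). Of 4 double-negative markers, Cd44 was higher in NOD (11.9 ± 0.92 and 24.1 ± 3.20 CPM, 1.02 ± 0.23, adjusted p = 0.0474) and Il2ra was not called (16.9 and 11.1 CPM). Rag1 (8991 and 5896 CPM) and Dntt (1999 and 1398 CPM) had the highest CPM of the double-positive markers, as means over the 4 samples. Of the markers of other cells, Csf1r went from 0.642 to 3.55 CPM (adjusted p = 0.0233) and Col1a2 from 0.0221 to 1.27 CPM (adjusted p = 0.00959), while Cd79b (12.9 and 9.93 CPM) and Lyz2 (3.85 and 9.54 CPM) were not called. The part of these markers in the histone differences was not tested.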

How the data were processed

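Total RNA of sorted CD4+ CD8+ thymocytes was made into stranded libraries with a low-input kit and sequenced as short read pairs, per the labels' protocols. For each library the authors deposited a table of unnormalized counts of reads by Ensembl gene. Alignment used STAR 2.5.0a and counting HTSeq 0.6.1 on GRCm38, per the submitters' processing notes. The release of the annotation, the strand setting and the handling of reads with several alignments are not given in the sources used here, and in the deposited tables the counter for such reads was at 0. Between 39.98% and 59.08% of reads per library fell outside genes and were not used. Symbols and coordinates came from GENCODE M21 (53360 of 53465 identifiers matched).

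Counts of the 2 libraries of a sample were summed. All genes passing filterByExpr were fitted with edgeR 4.0.16 in R 4.3.3 (TMM factors, robust quasi-likelihood F-test, two-sided, with a term for strain and 2 residual degrees of freedom), and SE were derived from the fold change and its F statistic. The fit was tested on simulated data, in which the share of false calls exceeded the threshold of 0.05. RPKM divided scaled CPM by the length of merged exons. The models of 15 members end within 5 bases of the coding part and others run far beyond it, so ranks per length depend on the annotation too. Sums are descriptions without a test. Intervals of counting error were not computed, since the 2 samples per strain limit the precision.

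The members and the 10 gene lists were chosen with earlier results of these data known. Genes named were every called member, the 2 with the highest RPKM per type, the 3 largest log2 fold changes in each direction, members with 5 to 15 reads, called or 2 most abundant genes of each list, Slbp, and called genes among the neighbours; all other genes in the text were named after their values were seen. A gene that this rule would name is not reported here. Alternatives were RLE scaling, DESeq2 1.42.0, no filter, leaving out each sample, a replicate block, and limma 3.58.1 voom on 8 libraries. Python 3 scripts searched reference transcripts and promoters for shared windows and motifs.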

Additional observations from a re-analysis of the deposited data

Results flagged for a closer look

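In 52 groups of 4 libraries (the named members and the sums, by strain), 2 had 1 library far from the other 3. For 4 independent values chance gives about 1 group in 20. That rate does not strictly apply here, because libraries of 1 sample are related and the sums contain named members. Hist1h1c was at 2287 CPM in library 2 of NOD sample 2 and at 1522 to 1610 CPM in the other NOD libraries. Hist2h2aa1 was at 0.189 CPM in the same library and at 0.0329 to 0.0430 CPM in the others, from 8 NOD reads in all. Both genes are uncalled or untested between the strains. The summed histone level of that library was 1.40 times that of the other library of its sample.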

How the results depend on the processing

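Each of the 8 called members kept its direction in every alternative fit, and Hist2h2aa2 alone lost its call, without C57BL/6J sample 1. The number of called members was 8 with RLE scaling (beside 3.76% of all tested genes), 19 (10 higher, 9 lower; 1188 genes in all, 3.38%) without the filter on low counts, 13 (8 higher, 5 lower) with DESeq2 (4.48%), 10 with limma voom on the 8 libraries (4.92%), and 8 (4.58%) when NOD sample 2 was taken from its library 1 only, an alternative chosen after seeing the data. Leaving out 1 sample at a time gave 7 to 35 called members, 3 to 10 higher and 4 to 30 lower, and 256 to 1389 genes over the whole table; the 35 came without NOD sample 2 and the 14 without NOD sample 1. With the B number as a replicate block 8 members and 513 genes (2.97%) were called, and no call of a member changed. Deviations of equally numbered samples had a correlation of -0.17; with the numbers crossed, 12 members and 768 genes (4.44%) were called. Among named members, 4 had a sign that 1 sample reversed: the log2 fold change of Hist1h1b was 0.04 when C57BL/6J sample 1 and 0.20 when NOD sample 1 was left out (range over the 4 samples -0.55 to 0.20), and Hist1h2bn gave 0.06 and 0.34 (-0.65 to 0.34). With NOD sample 1 left out, Hist1h2ak gave 0.27 (-1.13 to 0.27) and Hist2h3b 0.37 (-0.92 to 0.37). All other comparisons of named members with alternatives kept the sign. The log2 ratio of the sum of all members was -0.10 and ran from -0.48 (without NOD sample 2) to 0.20 (without NOD sample 1); in the sums by type that leave out 1 sample, H2A ran from -0.19 to 0.79 and H3 from -0.98 to 0.12. A sum of H2A genes without overlapping exons could not be made, because all 20 overlap another model. The shallower C57BL/6J libraries limit members with few reads, such as Hist2h2aa1 and Hist1h2br.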
